A study of Homo sapiens with 2 samples.

Results

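Regulators of the epithelial-mesenchymal transition were followed in the colon carcinoma line SW620, which was established from a lymph node metastasis. The set named 10 genes, of which 9 had probes whose symbol in the platform's gene table matched, with 12 probes among the 24459 kept on each array. OVOL1 was not analysed here, since no probe listed it. The 9 genes stand beside 18638 genes with a probe in all. The members were ESRP1, ESRP2, OVOL2 and GRHL2 on the epithelial side and ZEB1, ZEB2, SNAI2, TWIST1 and TWIST2 on the mesenchymal side, and were taken by gene name.

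The series asked which transcripts differ when CDR1AS, a circular RNA with many sites for the microRNA miR-7, is expressed in these cells. One group was SW620 cells carrying a control lentivirus (1 array) and the other was SW620 cells made to express CDR1AS (1 array), both grown in DMEM with serum and given no other treatment. Which promoter drives CDR1AS, and whether the cells were a clone or a pool, cannot be told from the labels. On each array was total RNA carrying Cy5, read in a single colour. With 1 array per group there are no replicates, no error between replicates and no test, so each difference is a difference between 2 arrays and their number limits the precision. Fold changes in a bulk culture cannot tell fewer cells of a kind from less RNA per cell.

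An epithelial cell is held in its state by factors that keep junction genes on and mesenchymal genes off. GRHL2 and the OVOL zinc-finger proteins are transcription factors of that kind, and OVOL proteins repress ZEB1. ESRP1 and ESRP2 are RNA-binding proteins that choose epithelial exons in transcripts such as FGFR2, CD44, CTNND1 and ENAH. The zinc-finger repressors ZEB1, ZEB2 and SNAI2 and the basic helix-loop-helix factors TWIST1 and TWIST2 act in the opposite direction. They bind E-boxes and silence genes such as CDH1, and ZEB1 and the miR-200 microRNAs repress each other. Colon carcinoma lines commonly express members of both sides.

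Below, control spot and CDR1AS spot name a probe's deposited brightness on the control lentivirus array and on the CDR1AS expressing array. The background limit of an array was the mean of its 384 blank spots plus 2 SD, at 69.1 units for control spots and 72.1 for CDR1AS spots. It was passed by 84.4% of the 24459 control spots and by 87.2% of the CDR1AS spots, and the spots that passed had medians of 122 and 126 units. No probe was matched to circular CDR1AS, so the labels of the arrays were not checked against it. Colon and epithelial markers were present on both arrays. KRT18 had control and CDR1AS spots of 56040 and 47560 units, EPCAM 8538 and 6334, TFF3 2523 and 1290, and VIL1 607 and 755. CDX2 had 170 and 109, LGALS4 122 and 120.5, FABP1 132 and 103.5, GPA33 254.5 and 309, and CEACAM6 104 and 115. CDX1 (83.2 and 83.4) and KRT20 (82.8 and 92.4) were close to the limits. CEACAM5 (69.9 and 69.4) passed the limit as a control spot alone and CDH17 (67.9 and 73.3) as a CDR1AS spot alone.

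All 12 probes were above background on both arrays, but most only just. The brightest control spot was that of ESRP1 and the brightest CDR1AS spot that of SNAI2. The dimmest control spot was that of GRHL2, at 1.03 times the limit. On the CDR1AS array the dimmest was that of 1 TWIST2 probe, at 1.04 times the limit. On the log2 scale used for ratios, made with an offset of 50 units that compresses the folds of dim spots, 1 of the 9 genes was at or past 2-fold, against 1.33% of 16685 genes measured. That gene was ESRP1, on the lower side, where the share over all genes was 0.575%. The median log2 ratio over the 9 genes was −0.08, beside −0.0035 over all genes, whose quartiles were −0.10 and 0.09. In the authors' deposited table, which subtracts a blank level and does not compress, 4 of 9 genes were at or past 2-fold, against 5.38% of 16249 genes. ESRP1, OVOL2 and TWIST2 were lower there, against 2.18%, and ZEB1 higher, against 3.21%. The same 4 genes were called at 1.5-fold in the main setting (4.84% of all genes), with an offset of 16 (2.4%) and with the blank level subtracted (5.54%). The members were chosen with earlier results of these data known, so their counts beside these shares are a description. The SD of a log2 ratio expected from the scatter of repeated, bright positive-control spots within an array was 0.23. Repeated negative-control spots, with medians of 65.8 to 72.2 units, had log2 SDs of 0.02 to 0.16 within an array. No repeats were measured at the level of the brighter regulators, such as ESRP1.

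**Figure D1:**
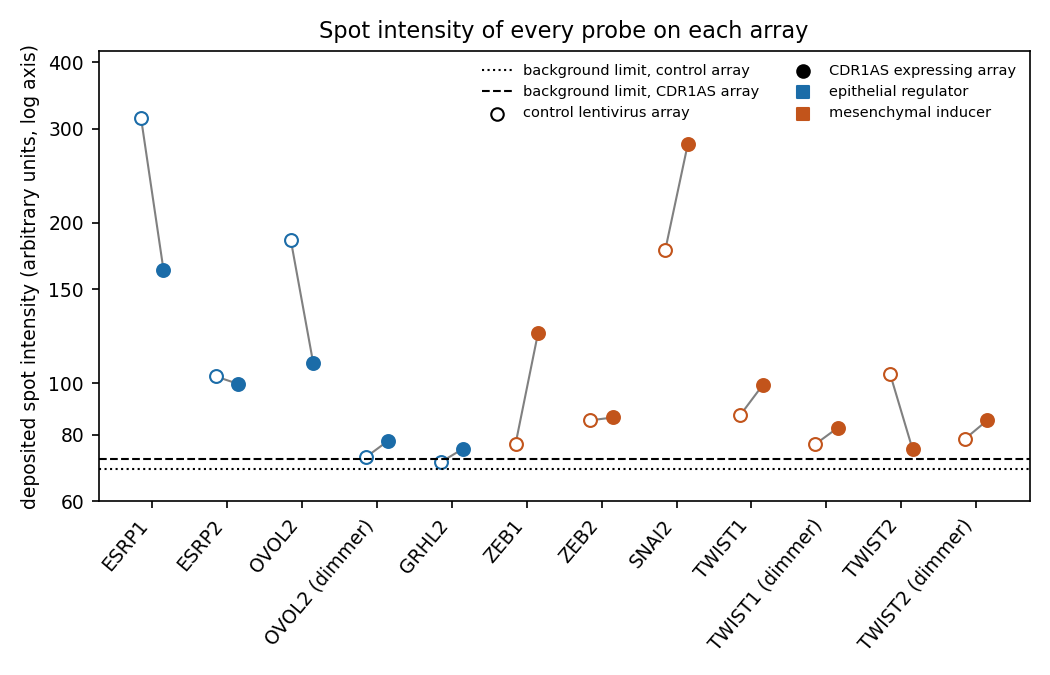
Deposited spot intensity (arbitrary units, log axis) of each of the 12 probes on the control lentivirus array (open points) and the CDR1AS expressing array (filled points), joined per probe, with each array's background limit as a line; blue marks epithelial regulators and orange mesenchymal inducers. ESRP1 and the brighter OVOL2 probe lie lower on the CDR1AS array, SNAI2 and ZEB1 higher, and the brighter TWIST2 probe has spots of 104 and 75.2, the latter just above the limit of 72.1.

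Among the epithelial regulators the splicing factor ESRP1 differed most on the main scale. Its control spot was 315 units and its CDR1AS spot 163, at 4.55 and 2.27 times the limits. The local background was 186 units beside the control spot and 127 beside the CDR1AS spot, and with it subtracted the log2 ratio was −1.13. In the main setting the log2 ratio was −1.12, or 2.17-fold lower, and in the deposited table the values were 118.5 and 42.9, or 2.76-fold lower. ESRP1 was the 79th lowest of 19097 measured probes with a symbol. Among the 1603 probes within 0.25 log2 units of its mean level, 0.811% had a ratio as low or lower. The design transcript of this probe is a non-coding RefSeq model that is not in the current annotation table, and which ESRP1 isoforms the probe reports is not known here.

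Its paralogue ESRP2, which shares many splicing targets, had a control spot of 103 units and a CDR1AS spot of 99.6. The log2 ratio was −0.16, where the ratios of probes of like level had an SD of 0.20, and it was 0.03 with the local background subtracted.

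OVOL2, the zinc-finger repressor that opposes ZEB1, was lower by its brighter probe. The control spot was 185 units and the CDR1AS spot 109, with a log2 ratio of −0.96 (1.94-fold lower) and deposited values of 57.0 and 18.0 (3.17-fold lower). In the deposited table this fold was larger than that of ESRP1, as it was with the blank level subtracted (−1.71 beside −1.52). It was the 118th lowest of the 19097 probes. The dimmer probe of OVOL2 had spots of 72.6 and 78.0 units, near the limits on both arrays, and a ratio of 0.03. The probes were designed on different RefSeq transcripts of the gene, and a spot so close to the limit carries little information on either.

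GRHL2, the grainyhead factor that activates CDH1 and other junction genes, had spots of 71.1 and 75.3 units and a log2 ratio of 0.00. Its spots were so near the limits that a difference in GRHL2 was not detectable at this signal. The design transcript of the probe, like that of ESRP1, is not in the current RefSeq annotation. The median over the 4 epithelial regulators was −0.56, with 3 below 0 and 1 above, and it was −0.31 when OVOL2 was given the median of its probes.

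**Figure D2:**
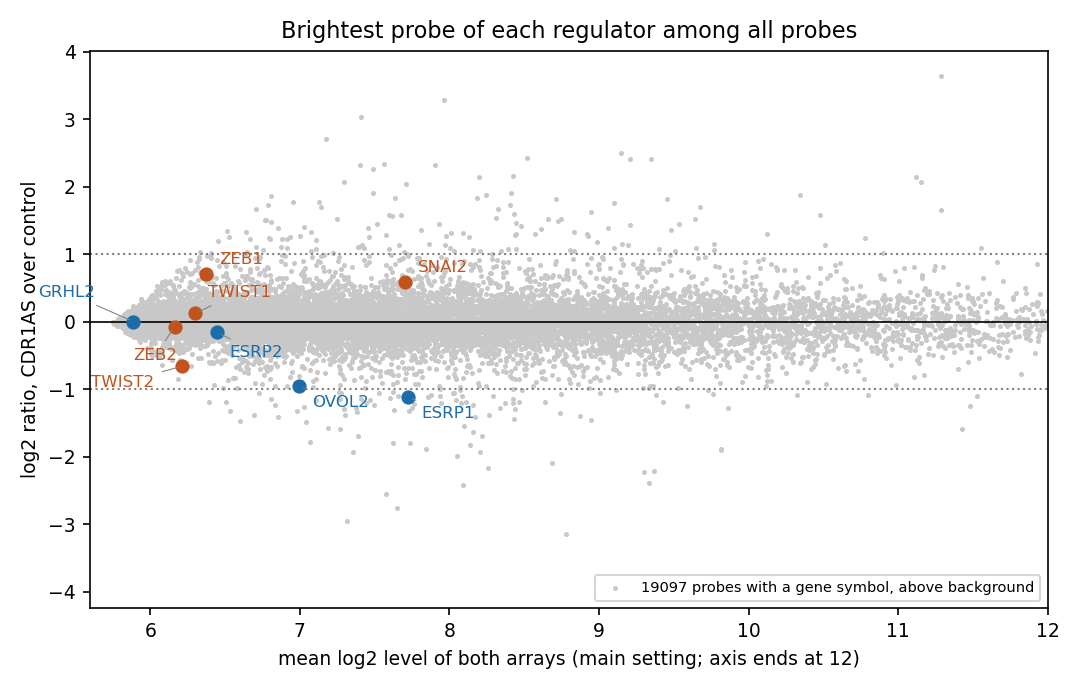
Log2 ratio of the CDR1AS expressing array over the control lentivirus array (vertical axis) against the mean log2 level of both arrays (horizontal axis) for 19097 measured probes with a symbol (grey) and the brightest probe of each regulator (blue epithelial, orange mesenchymal); dotted lines mark 2-fold. ESRP1 lies past the lower line at −1.12 and OVOL2 just inside it at −0.96, while ZEB1 (0.70) and SNAI2 (0.58) lie above most probes of their level.

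Of the mesenchymal inducers, ZEB1 and SNAI2 were higher on the CDR1AS array. ZEB1, the repressor of CDH1 and of the miR-200 genes, had a control spot of 76.8 units and a CDR1AS spot of 124. The log2 ratio was 0.70 (1.63-fold higher), the 328th highest of the 19097 probes, and 0.800% of 3877 probes of like level were as high or higher. In the deposited table the values were 5.3 and 24.9, or 4.70-fold higher. The fold of ZEB1 is poorly determined, since its control spot was only 1.11 times the limit, and with the local background subtracted the ratio was 0.14. That background was 56.3 units beside the control spot and 77.4 beside the CDR1AS spot. This probe, too, was designed on a RefSeq model that the current table does not hold.

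SNAI2, also called Slug, had a control spot of 178 units and a CDR1AS spot of 281, the brightest of the mesenchymal inducers. Its log2 ratio was 0.58 (1.497-fold higher, just under the 1.5-fold cut) and its deposited values were 53.4 and 96.6 (1.81-fold higher). Its ratio lay between 0.45 and 0.86 under each of the processing settings tried, a narrower range than that of ZEB1, which ran from 0.14 to 2.23. Among 1621 probes of like level, 4.20% had a ratio as high or higher.

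ZEB2, the paralogue of ZEB1, had spots of 85.1 and 86.2 units and a log2 ratio of −0.08. TWIST1, a factor active in the mesoderm and in invasive carcinoma cells, had spots of 87.1 and 99.2 units by its brighter probe, with a ratio of 0.12, and of 76.8 and 82.4 units by its dimmer probe, with a ratio of 0.02. The ratios of probes of like level had SDs of 0.14 for ZEB2 and of 0.17 and 0.11 for the TWIST1 probes.

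TWIST2 was lower by its brighter probe. The control spot was 104 units and the CDR1AS spot 75.2, which was 1.04 times the limit. The log2 ratio was −0.66 (1.58-fold lower) and 0.0836% of 4785 probes of like level were as low or lower. The deposited values were 18.3 and 2.6, or 7.04-fold lower, a fold that rests on a spot at the edge of detection. The dimmer TWIST2 probe gave 78.6 and 85.2 units and a ratio of 0.05. Its design transcript, like that of the dimmer TWIST1 probe, is not in the current RefSeq annotation. The median over the 5 mesenchymal inducers was 0.12, with 3 above 0 and 2 below, so its members lay on both sides of 0.

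**Figure D3:**
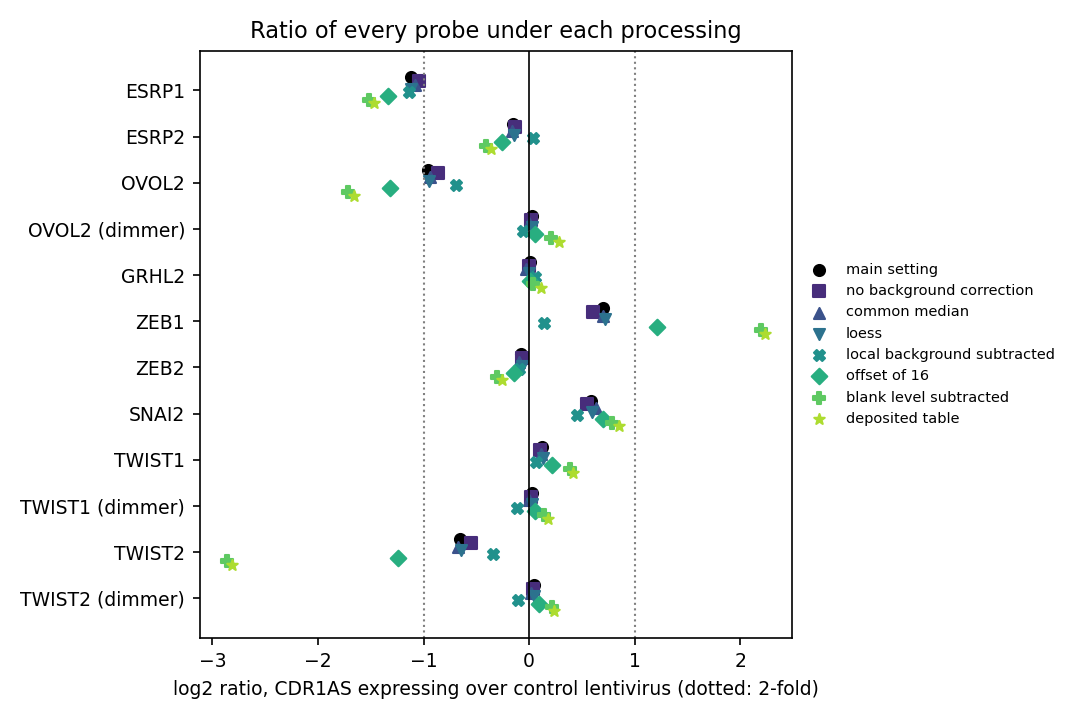
Log2 ratio of each probe (horizontal axis, CDR1AS expressing over control lentivirus) under the main setting (black) and 7 other ways of processing; dotted lines mark 2-fold. ESRP1 stays past 2-fold lower in all 8, while ZEB1 ranges from 0.14 to 2.23 and the brighter TWIST2 probe from −2.87 to −0.34.

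In the 2001 genes with exactly 2 probes that passed both limits, the absolute difference between the probes' log2 ratios had a median of 0.11 and was over 0.5 in 4.40% of genes. OVOL2 and TWIST2 were both among that 4.40%, and TWIST1 was not. In each of the 3 genes the dimmer probe had a ratio near 0. The brighter probes of OVOL2 and TWIST2 were thus the sole basis for their lower values.

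The 24 spots or fewer around each probe on the array surface had median log2 ratios between −0.05 and 0.02, so the ratios of ESRP1, OVOL2, ZEB1, SNAI2 and TWIST2 were not shared by the spots beside them. Nor were they shared along the chromosome. Of the 20 nearest measured genes around each regulator (10 on each side), the median log2 ratio lay between −0.02 and 0.06 for all 9. Past 2-fold there were 0 such neighbours of ESRP1, OVOL2 and SNAI2. Among those of ZEB1 was SVIL, which encodes the actin-binding protein supervillin (1.47), and among those of TWIST2 was the transcription factor gene HES6 (−1.15).

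ZEB1 is shown with its promoter because, in the main setting, it is the E-box-binding repressor of the set with the highest ratio. With the local background subtracted SNAI2 (0.45) was above ZEB1 (0.14). E-boxes are the letters that ZEB, SNAI and TWIST proteins read. Promoter windows were taken from RefSeq (GRCh38.p14), as the 250 bases before a transcription start, and 3 of the 10 regulators (ZEB1, ZEB2 and TWIST2) had one in the promoter table used here. Capitals mark each CANNTG, the general E-box, which reads the same on both strands and includes CACCTG and its reverse complement CAGGTG, the form bound by ZEB and SNAI proteins. The windows are ZEB1 (the most upstream of its 7 starts, chr10:31318167-31318416, plus strand), ZEB2 (chr2:144520120-144520369, minus strand) and TWIST2 (chr2:238847835-238848084, plus strand).
ZEB1: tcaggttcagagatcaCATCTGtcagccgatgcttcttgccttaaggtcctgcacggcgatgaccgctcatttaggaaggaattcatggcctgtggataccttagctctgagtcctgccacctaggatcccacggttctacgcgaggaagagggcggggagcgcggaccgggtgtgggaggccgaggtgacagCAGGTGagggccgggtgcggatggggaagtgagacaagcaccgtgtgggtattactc
ZEB2: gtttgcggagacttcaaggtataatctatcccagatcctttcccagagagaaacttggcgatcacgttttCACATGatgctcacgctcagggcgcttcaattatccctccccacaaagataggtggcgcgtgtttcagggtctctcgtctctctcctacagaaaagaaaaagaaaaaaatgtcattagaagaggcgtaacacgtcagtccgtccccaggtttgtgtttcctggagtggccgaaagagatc
TWIST2: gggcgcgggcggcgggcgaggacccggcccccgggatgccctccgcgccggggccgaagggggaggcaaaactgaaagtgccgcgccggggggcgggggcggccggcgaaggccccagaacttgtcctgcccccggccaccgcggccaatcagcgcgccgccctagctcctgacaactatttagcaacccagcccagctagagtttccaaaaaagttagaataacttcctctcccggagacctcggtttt

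The ZEB1 window held 2 CANNTG, of which 1 was CAGGTG. Another of its 7 start windows, not printed, held 2 matches to CACCTG or CAGGTG, and 3 of the 7 were without any CANNTG. The ZEB2 window held 1 CANNTG and the TWIST2 window 0. Of 35116 windows of the same length over all genes, 61.8% held a CANNTG and 17.5% held CACCTG or CAGGTG. These matches describe letters in a window and are not evidence of binding.

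ZEB1 and ZEB2 are the best-known targets of the miR-200 family, so the mature sequences are given for orientation (RefSeq, GRCh38.p14), with the seed, bases 2 to 8, in capitals. The microRNAs themselves were not measured on these arrays. miR-141 and miR-200a share one seed, and miR-200b and miR-200c share another.
miR-141-3p: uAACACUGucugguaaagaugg
miR-200a-3p: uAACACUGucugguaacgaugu
miR-200b-3p: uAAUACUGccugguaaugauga
miR-200c-3p: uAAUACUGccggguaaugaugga

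Other genes of the transition were described from lists that were chosen with earlier results of these data known, so their counts are a description. In each list a gene is its brightest probe, and the shares over all genes measured were 0.755% at or past 2-fold higher and 0.575% lower. With the local background subtracted they were 4.57% and 3.32% (7.89% in either direction). Among the regulators that background tended to be higher beside brighter spots. It was 186 and 127 units beside the ESRP1 spots of 315 and 163, and 60 and 58 beside the GRHL2 spots of 71 and 75. For SNAI2 it was 139 and 140 units, with spots of 178 and 281. Whether its subtraction removes part of a spot's own signal was not tested, so these ratios are given as a description. Of 12 measured EMT-inducing factors outside the set, 1 was at or past 2-fold: SOX4, which promotes EMT downstream of TGF-beta, had a control spot of 444 units and a CDR1AS spot of 1290 (2.73-fold higher, log2 ratio 1.45). SOX9 (0.36) and TCF4 (0.35) followed, and SNAI1 (−0.11) and TCF12 (−0.19) were lowest. The count depended on the setting, and was 2 with the blank level subtracted. With the local background subtracted it was 2, SOX9 (2.08) and SOX4 (1.13). In the deposited table it was 2, SOX4 (1.63) and TCF4 (2.28), the latter from a control spot of 70.0 units, close to the limit. SNAI1, the closest relative of SNAI2 here, had spots of 91.0 and 90.3 units. The list's median was 0.02.

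Of 10 measured epithelial transcription factors outside the set, 1 was past 2-fold: ELF3, an ETS factor of gut epithelium, at 2.15-fold lower (spots 453 and 236, log2 ratio −1.10). CDX2, the homeobox factor that specifies intestinal epithelium, was 1.76-fold lower (170 and 109 units, −0.82), and EHF had −0.35. FOXA2 was 1.5-fold higher (0.58) and TFAP2A had 0.02, and KLF4, with a control spot below the limit, had 67.9 and 93.5 units (at least 1.35-fold higher). The grainyhead relatives GRHL1 (84.5 and 86.3 units, −0.06) and GRHL3 (below both limits), like KLF4, were named outside the rule after their values were seen. The list's median was −0.04.

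The splicing side of the transition gave mixed values. Among 13 measured genes whose transcripts ESRP proteins splice, 1 was past 2-fold higher and 1 lower. ENAH, an actin regulator of the Ena/VASP family whose mesenchymal isoform lacks an ESRP-dependent exon, had a control spot of 70.4 units, at the edge of detection, and a CDR1AS spot of 207 (3.18-fold higher, 1.67). The receptor gene FGFR3 had 268 and 123 units (2.52-fold lower, −1.33). Neither was past 2-fold with the local background subtracted (0.59 and −0.97). The filter at 2 times the limit on both arrays removed both genes. The 0 called among the 6 genes it left therefore says nothing on their ratios. The others named by the rule were MAP3K7 (0.39), NUMB (0.16), EXOC7 (−0.12) and FGFR1 (−0.22), and the list's median was 0.02. These probes give a transcript level and do not report which exons were used, so no statement on splicing follows from them. Of 13 measured splicing factors other than ESRP, 0 were past 2-fold. RBM47, another RNA-binding protein of epithelial splicing, had −0.57 (176 and 132 units), QKI had −0.56 with a ratio of −0.03 by its other probe, MBNL2 had 0.56 with 0.31 by its other probe, and RBFOX2 had 0.25. The median of that list was −0.12.

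Among 34 measured epithelial genes of the kind repressed by ZEB and SNAI factors, 22 were below 0 and 12 above, with a median of −0.07. MARVELD3, a tight junction protein gene, was the one past 2-fold by its brightest probe, at 2.97-fold lower (spots 254.5 and 101, −1.57). MUC1, named outside the rule after its value was seen, had 0.07 by its brightest probe and −1.48 by its other probe. The count of this list depended on the setting: 3 were lower with an offset of 16, 6 with the blank level subtracted and 4 in the deposited table. With the local background subtracted 2 were lower and 2 higher. The filter at 2 times the limit removed MARVELD3 because of its dim CDR1AS spot, and 0 of the 21 genes left were called. The membrane protease gene ST14 had −0.99, the tight junction scaffold gene TJP3 −0.98 with −0.11 by its other probe and 0.08 with the local background subtracted, and the desmosomal gene PKP3, named outside the rule after its value was seen, −0.92 (626 and 365 units), but 0.40 with the local background subtracted. The keratin gene KRT19 (0.83) and the desmosomal periplakin gene PPL (0.41) were highest. CDH1, which encodes E-cadherin and is the classic target of ZEB1 and SNAI2, was also looked at after its value was known. It had spots of 288 and 320 units and a log2 ratio of 0.04.

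Of 27 measured mesenchymal genes, 13 were above 0, 13 below and 4 past 2-fold higher, with a median of 0.00. These were VIM (3.64 by its brightest probe, −0.07 and 0.02 by the others), AXL (2.14), TAGLN (1.27, other probe 1.78) and FN1 (1.09). With the local background subtracted 2 were past 2-fold, with TAGLN at 0.41 and FN1 at 0.42, and with the blank level subtracted there were 7. CCN1 (0.31), ZYX (0.16), CALD1 (−0.26) and ITGB1 (−0.23) were the others named by the rule. The receptor gene NRP1, whose control spot was below the limit, had 66.7 and 126 units (at least 1.89-fold higher), and was named after its value was seen. The neural and mesenchymal cadherin gene CDH2, looked at in the same way, had spots below both limits (68.3 and 70.4 units).

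**Figure D4:**
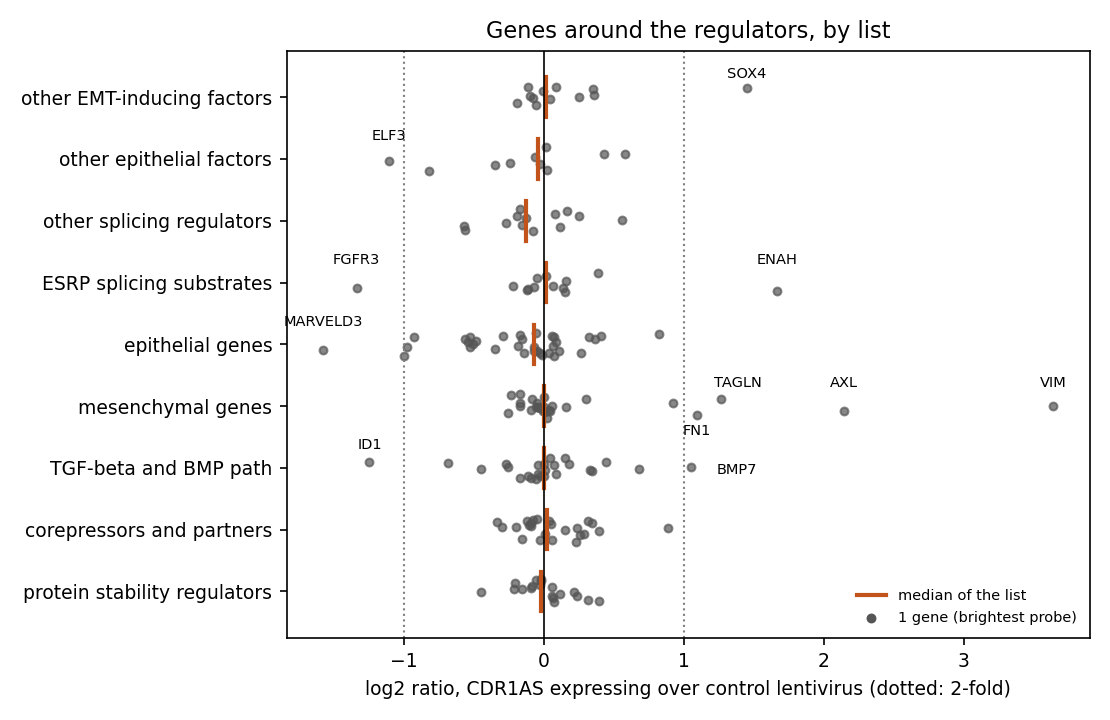
Log2 ratio (horizontal axis) of each measured gene in 9 lists around the regulators, 1 point per gene, with the list's median as an orange bar; dotted lines mark 2-fold and names mark genes past it. The medians all lie near 0, from −0.12 to 0.02, and single genes such as VIM (3.64), ENAH (1.67), SOX4 (1.45) and MARVELD3 (−1.57) stand away from them.

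Genes acting above the regulators were near 0 as lists. Of 25 measured genes of TGF-beta and BMP signalling, BMP7, a ligand that opposes EMT in kidney epithelium, was 2.07-fold higher (189 and 405.5 units, 1.05, other probe 0.54), and ID1, a helix-loop-helix inhibitor induced by BMP signals, was 2.37-fold lower (4205 and 1922 units, −1.24). With the local background subtracted, both turned: ID1 was higher (2.52) and BMP7 lower (−1.03). The related ID3 (−0.68) and SMAD3 (−0.44) were lowest among the rest, and the inhibitory SMAD6 (0.68) and BMP4 (0.45, but −0.84 with the local background subtracted) highest. The list's median was 0.00.

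Among 24 measured corepressors and chromatin partners, 0 were past 2-fold in the main setting and the median was 0.02. With the local background subtracted 5 were higher (HDAC1 at 4.18, HDAC2 at 1.94, SMARCA4 at 1.36, RBBP4 at 1.08 and KDM1A at 1.03) and CTBP2 was lower (−1.20), and with the blank level subtracted 2 were higher. CTBP1, which encodes a corepressor recruited by ZEB1, had spots of 244 and 479 units (1.85-fold higher, 0.89), and a ratio of 0.01 with the local background subtracted. Its paralogue CTBP2 had −0.30, SUZ12 −0.34 and RBBP4 0.40 in the main setting. Of 19 measured regulators of the stability of ZEB, SNAI and TWIST proteins, 0 were past 2-fold in the main setting. GSK3B (0.39) and CSNK1A1 (0.32) were highest and GSK3A (−0.44) and USP7 (−0.21) lowest, with a median of −0.02. With the local background subtracted 1 was higher (CSNK1A1 at 1.26) and 1 lower (PARP1 at −1.01). Protein levels were not analysed here.

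On the main scale, which compresses dim spots, no marker of the other cell kinds considered was past 2-fold. Of the fibroblast, endothelial, leukocyte and HEK293 lists, with 6, 7, 6 and 8 measured genes, 0 genes were called, and the medians were −0.06, 0.02, 0.00 and −0.05. The summed deposited values were 196 and 183 for the control and CDR1AS spots of the 9 fibroblast markers, 167 and 197 for the 9 endothelial, 198 and 228 for the 8 leukocyte and 153 and 143 for the 9 HEK293 markers. The endothelial marker PECAM1 had a control spot of 66.4 units, under the limit, and a CDR1AS spot of 98.3 (at least 1.43-fold higher). The markers COL1A1, COL1A2, COL3A1 and PTPRC were below both limits, but others passed both. Above on both arrays were 5 of the 9 fibroblast, 5 of the 9 endothelial, 6 of the 8 leukocyte and 7 of the 9 HEK293 markers. Among these were DCN (236 and 243 units), ESAM (237 and 288), CD79A (331 and 418) and PAX8 (173 and 183). The summed deposited value of the 13 colon markers was 32370 for control spots and 25680 for CDR1AS spots. KRT18 alone gave 26670 and 21730 of these sums by its brightest probe, while the ratios of its other probes were −0.10 and −0.05. EPCAM gave 4036 and 2866 and TFF3 1171 and 558, whereas VIL1, GPA33, KRT20 and CEACAM6 had higher CDR1AS spots. With the local background subtracted the direction of each of these turned. The log2 ratios were then 2.13 for EPCAM, 0.16 for TFF3, −0.27 for VIL1, −0.19 for GPA33, −0.16 for KRT20 and −0.12 for CEACAM6. The median log2 ratio of the colon markers was −0.09 in the main setting and −0.12 with the local background subtracted. The part of these differences in the ratios of ESRP1, OVOL2 and ELF3 was not tested.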

How the data were processed

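Each array was deposited as a spot file with the median spot intensity at 635 nm, on a linear scale, read at 3 scanner gains per the file headers; the labels and headers do not say how the gains were joined. The deposited value table held the authors' intensity after a blank level had been subtracted and both medians placed at 25, as found by setting it against the spot files (largest residual from a straight line 0.0510 and 0.0559 units).

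The ratios come from limma 3.58.1 (R 4.3.3): normexp without the local background (offset 50), then quantile normalization and log2, after 1 of 24460 probes was left out for a flag. Probe genes came from the platform annotation: 21706 probes had 1 symbol, 0 several and 2753 none, and 21674 matched a gene in RefSeq (GRCh38.p14). A gene was its brightest probe, kept where it passed the limit on 1 array or both; where only 1 spot passed, the dimmer spot was raised to the lowest passing level if it lay under it, and the ratio is then a bound. The steps were tested on simulated data, with differences placed only in probes far brighter than the regulators. That test does not cover recovery of a difference at the regulators' level, where control spots were 1.03 to 4.55 times the limit.

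Named were all probes of the regulators and, per list, genes past 2-fold and the 2 highest and 2 lowest others among genes above background on both arrays; the colon markers were named as a check. The members and lists were chosen with earlier results of these data known. Alternatives changed the offset, background, normalization, values, filter, probe rule and fold. No source used here names the array's design build, so coordinates belong to RefSeq promoters only.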

Additional observations from a re-analysis of the deposited data

How the results depend on the processing

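The count of regulators at or past 2-fold was 1 of 9 in the main setting and 4 of 9 with an offset of 16, with the blank level subtracted and in the authors' deposited value table, and also 4 with 1.5-fold in place of 2-fold. In each of these the genes were ESRP1, OVOL2, TWIST2 and ZEB1. The offset of 50 compresses the ratio of dim spots by its construction. The count stayed at 1, ESRP1, without background correction, with the local background subtracted, with a common median, with loess, with the other filters and when a gene's probes were reduced to their median; the filter at 2 times the limit left ESRP1 and SNAI2 alone. Of 84 ratios of single probes under alternatives, 77 kept their sign and 7 did not, none of these of ESRP1, ZEB1, SNAI2 or the brighter probes of OVOL2 and TWIST2. The median over the regulators ran from −0.30 to 0.03, over the epithelial ones from −1.12 to −0.31 and over the mesenchymal ones from 0.07 to 0.58. The ends at −1.12 and 0.58 came from that filter and are the ratios of ESRP1 and SNAI2 alone. Without it the ranges were −0.963 to −0.31 and 0.07 to 0.415. The medians of the 9 lists each moved by less than 0.23. Spots of GRHL2, ZEB2, both TWIST1 probes and the dimmer OVOL2 and TWIST2 probes were within 1.4 times the limit, which bounds what could be seen. No paired analysis was possible because each group had 1 array, and leaving out an array would leave no comparison.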
